A study of Mus musculus with 6 samples.

Results

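The genes described here encode 9 proteins that are counted as matrix proteoglycans or belong to their family, and the matrix Gla protein. They are Dcn, Bgn, Aspn, Lum, Fmod, Prelp, Ogn, Vcan, Hspg2 and Mgp. They are identified by symbol, with no threshold on their values, and all 10 are among the 16415 genes of the deposited table. All 10 passed the filter on low values. The libraries are messenger RNA from mouse trigeminal ganglion, the sensory ganglion of the head, with 3 labelled NC-up and 3 labelled SETDB2-up. All 6 are from wild-type animals per the labels, which do not spell out either treatment name, say how it was given, or say whether libraries came from separate or pooled animals. The p-values therefore measure the spread between these libraries, which may be technical. The series title places SETDB2, an H3K9 methyltransferase family member, with KLF4, IDE and CGRP in sensory neurons in migraine.

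Proteoglycans carry sulfated sugar chains, the glycosaminoglycans, on a core protein. The small leucine-rich members bind collagen and set the width and spacing of its fibrils, whereas the large members fill the space between cells or build basement membranes. In a ganglion and its nerves they are products mainly of the fibroblasts of the sheath and endoneurium and of vessel walls, and perlecan also lies in the basement membranes around Schwann cells and satellite glia. Mgp is a small secreted protein whose glutamates are carboxylated with vitamin K. It keeps soft tissue and arteries from calcifying and binds bone morphogenetic proteins.

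Against NC-up, the SETDB2-up libraries held more transcript of Ogn and less of Mgp, Fmod and Hspg2. The other 6 genes, Dcn, Bgn, Aspn, Lum, Prelp and Vcan, did not pass the test. So 1 of 10 rose and 3 of 10 fell (limma, adjusted p under 0.05 over 16387 genes). Among all genes tested 7.71% rose and 8.71% fell, 16.4% in all. edgeR on the recovered reads gave the same counts, 1 up and 3 down, where 7.40% of all genes rose and 9.08% fell. The groups did not overlap for 4 of the 10 genes, 1 higher and 3 lower, as for 33.3% of all genes (16.8% higher and 16.4% lower). The median log2 difference of the 10 genes was 0.01 in limma and -0.07 in edgeR, against 0.00 over all genes in limma, with members on both sides of 0.

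Several properties of the libraries bear on these values. Recovered reads summed to between 19334997 and 23501386 per library. Setdb2 was at 69.9, 58.4 and 71.5 normalised reads in the NC-up libraries against 113, 97.6 and 104 (limma adjusted p = 0.0253, and 0.141 after the GC correction). Sensory neuron markers were abundant in both groups, with a summed level of 441523 to 463267 in NC-up against 444189 to 456823. Of the 12 tested, Scn9a rose (0.28 ± 0.06 SE) and Rbfox3 (-0.38 ± 0.06 SE) and Pou4f1 (-0.28 ± 0.06 SE) fell. After GC correction Rbfox3 and Pou4f1 still fell, and Tubb3 and Prph rose. SETDB2-up libraries 1 and 2 held liver transcripts, with Alb at 1673 and 3769.5 against 11.6 in library 3 and 0 in every NC-up library. Of 16 liver markers listed, 11 passed the filter on low values, Alb and Serpina1d through SETDB2-up alone. All 11 rose in limma and 6 of them in edgeR, but that filter partly fixed the direction in advance. The count is given as a description only. The sum of the 16 was 64.2 to 84.0 in NC-up and 119 to 8129 in SETDB2-up. Of 8 skeletal muscle markers 4 fell, with a sum of 2000.5 to 2131 against 892 to 1013. Most of that sum was Eno3, at 1878, 1859 and 1684 against 822, 823 and 862. Of 6 keratinocyte markers 5 fell, with a sum of 334 to 753 against 282 to 298. The part of such tissue in the values below was not tested. Differences followed base composition across the transcriptome. The median log2 difference fell from 0.21 in the decile of genes with the lowest GC content to -0.23 in the highest. The difference of each of the 10 genes is therefore given as deposited and after a correction that removed a smooth trend against transcript GC content from each library. After that correction 6.07% of 15513 genes passed, 2.11% upward and 3.96% downward, and of the 10 matrix genes 1 rose (Ogn) and 2 fell (Mgp and Fmod).

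**Figure D1:**
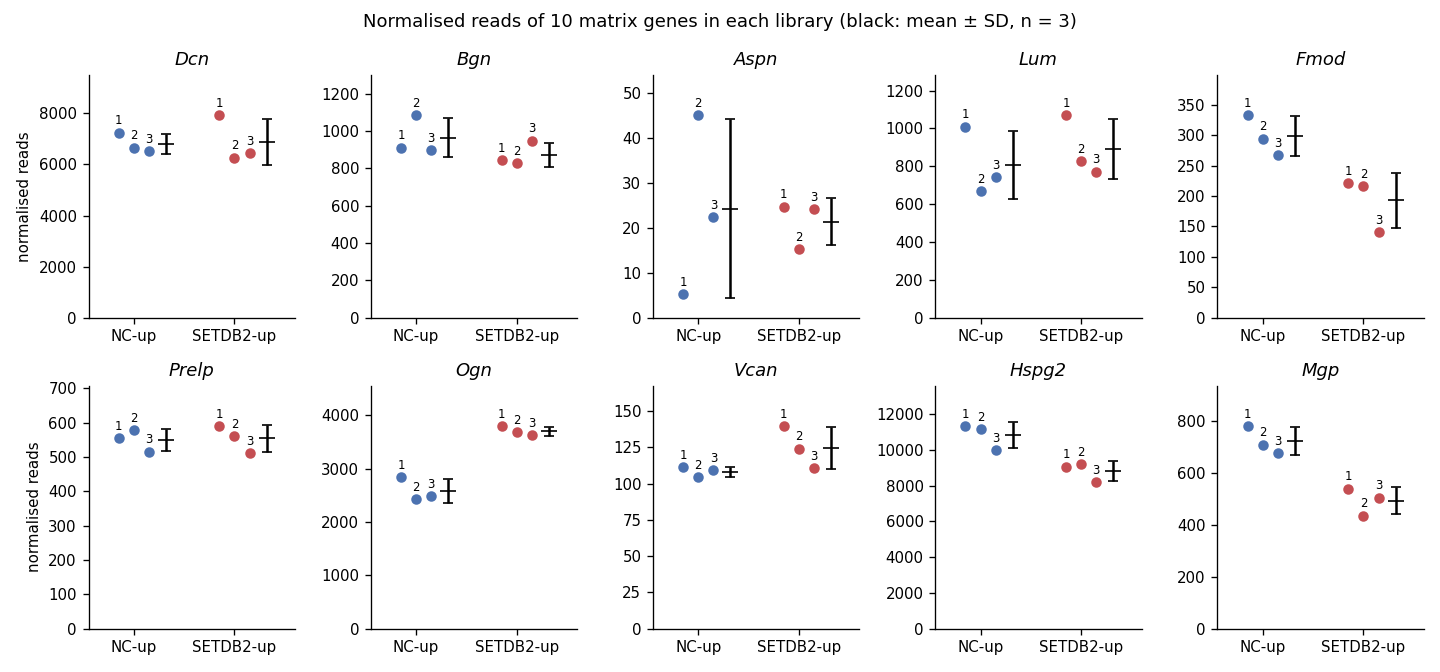
Normalised reads (y axis, from 0) of the 10 genes in the 3 NC-up (blue) and 3 SETDB2-up (red) libraries, numbered as in the labels, with the mean ± SD in black. The groups do not overlap for Ogn, which is higher in SETDB2-up, or for Fmod, Hspg2 and Mgp, which are lower.

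Ogn encodes osteoglycin, also called mimecan, a small leucine-rich protein that regulates collagen fibrils (gene 18295, GRCm38 chromosome 13, 49608015 to 49624501, plus strand). NC-up libraries had 2842, 2425 and 2482 normalised reads of Ogn, and SETDB2-up libraries had 3799, 3683 and 3623. Every SETDB2-up library lay above every NC-up library, and the 3 SETDB2-up values were close together. The means were 2583 ± 226 and 3702 ± 89.5 (SD, n = 3 each), a 1.44-fold rise (95% interval 1.31 to 1.58). Its log2 difference was 0.52 ± 0.06 (SE, limma adjusted p = 3.41e-05). After GC correction it was 0.30 ± 0.06 (SE, limma adjusted p = 0.00621), a smaller rise that still passed. Ogn has a GC content of 36.3% and lies in the lowest decile, where the median log2 difference was 0.21 with quartiles of 0.07 and 0.35.

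Fmod encodes fibromodulin, a keratan sulfate proteoglycan that binds type I collagen (gene 14264, chromosome 1, 134037254 to 134048280, plus strand). NC-up libraries had 333, 294 and 267 normalised reads of Fmod, against 221, 217 and 140.1 for SETDB2-up. The groups did not overlap, and SETDB2-up library 3 was the lowest of all. The means were 298 ± 32.9 and 193 ± 45.6 (SD, n = 3 each), with a log2 difference of -0.65 ± 0.16 (SE, limma adjusted p = 0.00842). After GC correction the difference was -0.58 ± 0.16 (SE, limma adjusted p = 0.0457). Without SETDB2-up library 3 it was -0.44 (limma adjusted p = 0.0264), and with library 3 as the only SETDB2-up library it was -1.08 (limma adjusted p = 0.00565), so the size of the fall rests in part on that library.

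Mgp (gene 17313, chromosome 6, 136872435 to 136875823, minus strand) had 781, 709.7 and 678 normalised reads in NC-up, against 539.6, 435 and 505 in SETDB2-up. No SETDB2-up library reached the lowest NC-up library. The means were 723 ± 52.8 and 493 ± 53.1 (SD, n = 3 each), a log2 difference of -0.55 ± 0.10 (SE, limma adjusted p = 0.000705). The GC-corrected difference was -0.58 ± 0.09 (SE, limma adjusted p = 0.00101), much the same as the uncorrected one. With a GC content of 49.2% Mgp lies in the middle of the range, in a decile whose median log2 difference was 0.04 with quartiles of -0.07 and 0.16. Among the 10 genes, Mgp and Fmod lay farthest below their deciles' medians, by -0.60 and -0.56.

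Hspg2 encodes perlecan, the large heparan sulfate proteoglycan of basement membranes (gene 15530, chromosome 4, 137468751 to 137570630, plus strand). It had 11332, 11166 and 10001 normalised reads in NC-up, against 9054, 9207 and 8177 in SETDB2-up, again with no overlap. The means were 10833 ± 726 and 8813 ± 556 (SD, n = 3 each), and the log2 difference was -0.30 ± 0.06 (SE, limma adjusted p = 0.00320). This call was lost after GC correction, where the difference was -0.05 ± 0.07 (SE, limma adjusted p = 0.759, 95% interval -0.19 to 0.10). Perlecan's transcript is the richest in GC of the 10, at 60.9%, and genes of its decile had a median log2 difference of -0.23 with quartiles of -0.35 and -0.13. Its fall was thus close to that of the genes with like base composition.

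**Figure D2:**
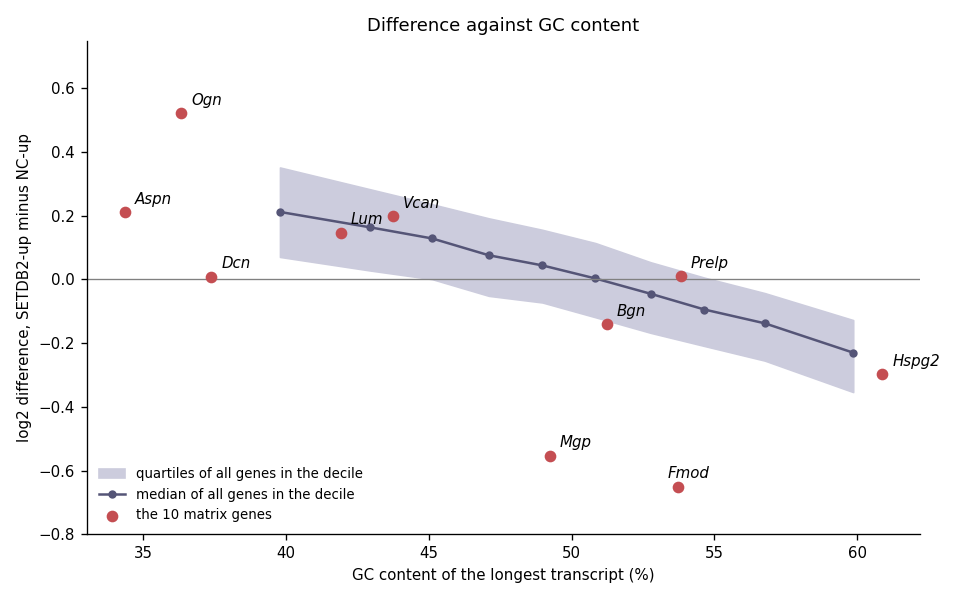
Log2 difference, SETDB2-up minus NC-up (y axis), against GC content of the longest transcript in percent (x axis) for the 10 genes (red), with the median (line) and quartiles (band) of all genes in each decile of GC content. Mgp and Fmod lie far below the band, Ogn lies above the level of its decile, and Hspg2, Lum, Vcan and Aspn lie near the medians of theirs.

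The upstream sequences of the genes that changed are shown because these genes moved in opposite directions and differ in base composition at the promoter as well. RefSeq windows (GRCm38.p6) were matched by gene identifier for 7 of the 10 genes, and of those that changed Ogn, Fmod and Hspg2 matched. Each is printed from 250 bases before the RefSeq start, on the plus strand, 5′ to 3′. Ogn is chr13:49607765-49608014, Fmod is chr1:134037004-134037253 and Hspg2 is chr4:137468553-137468768, which stops after 216 bases where an annotated GENCODE exon begins. By the deposited coordinates the Hspg2 gene starts at 137468751, so the end of its printed stretch, with its last marked match, lies inside that span. Capitals mark matches to any of 3 motifs on either strand. The TATA box was searched as TATAAA. The GC box, which Sp and Krüppel-like factors can bind, was searched as GGGCGG. The core shared by many Krüppel-like factor sites was searched as CACCC.
Ogn: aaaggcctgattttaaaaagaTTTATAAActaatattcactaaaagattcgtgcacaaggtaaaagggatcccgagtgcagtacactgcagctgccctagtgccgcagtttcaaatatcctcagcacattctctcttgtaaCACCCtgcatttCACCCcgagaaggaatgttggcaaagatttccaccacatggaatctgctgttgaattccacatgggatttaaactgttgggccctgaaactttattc
Fmod: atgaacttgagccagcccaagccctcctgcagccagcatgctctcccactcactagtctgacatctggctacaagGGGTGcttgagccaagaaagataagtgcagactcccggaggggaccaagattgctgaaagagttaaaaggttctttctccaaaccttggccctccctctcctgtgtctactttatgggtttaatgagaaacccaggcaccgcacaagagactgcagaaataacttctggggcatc
Hspg2: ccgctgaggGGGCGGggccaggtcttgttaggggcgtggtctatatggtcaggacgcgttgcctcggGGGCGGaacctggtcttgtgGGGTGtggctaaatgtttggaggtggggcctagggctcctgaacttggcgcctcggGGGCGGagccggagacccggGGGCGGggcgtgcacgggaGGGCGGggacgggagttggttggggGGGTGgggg
The Ogn window is 42.0% GC, with 2 overlapping TATAAA matches, 1 on each strand, at 229 and 227 bases before the start, 2 CACCC and no GGGCGG. The Fmod window is 51.2% GC and holds 1 CACCC and neither of the other motifs. The Hspg2 window is 70.0% GC over its 250 bases, with 5 GGGCGG, 3 CACCC (2 of them in the printed stretch) and no TATAAA. None of the 3 windows holds TGANTCA, the letters of an AP-1 site. Over 32851 RefSeq windows of the same length, 12.4% hold TATAAA, 32.7% GGGCGG, 52.0% CACCC and 6.75% TGANTCA on either strand. A match is a run of letters and was not tested as a binding site.

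Of the 6 genes that did not pass, Dcn and Bgn encode decorin and biglycan, closely related chondroitin or dermatan sulfate proteoglycans that bind collagen and transforming growth factor beta. Dcn (gene 13179, chromosome 10, 97479500 to 97518163) had 7242, 6650.3 and 6515 normalised reads in NC-up, against 7921, 6262 and 6444 in SETDB2-up. Its groups overlapped, with both the highest and the lowest value in SETDB2-up. The log2 difference was 0.01 (95% interval -0.15 to 0.16, limma adjusted p = 0.952). After GC correction it was -0.21 ± 0.07 (SE, limma adjusted p = 0.0645). Dcn, at 37.4% GC, lies in the same lowest decile as Ogn, where the median difference was 0.21. Bgn (gene 12111, chromosome X, 73483601 to 73495936) had 912, 1085 and 899 against 845, 830.0 and 949. These values overlapped, with a log2 difference of -0.14 (95% interval -0.32 to 0.04, limma adjusted p = 0.287) and of -0.12 after GC correction.

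Lum encodes lumican, which like fibromodulin carries keratan sulfate and binds the same region of collagen (gene 17022, chromosome 10, 97565501 to 97572703). It had 1009.6, 670.4 and 742 normalised reads in NC-up, against 1069.7, 827 and 771 in SETDB2-up. Library 1 of each group stood above the other two, and the groups overlapped (log2 difference 0.15, 95% interval -0.12 to 0.41, limma adjusted p = 0.466, and -0.03 after GC correction). Prelp encodes a basic leucine-rich protein that links perlecan to collagen (gene 116847, chromosome 1, 133910304 to 133930102). Its values of 555, 578 and 516 against 589.9, 561 and 510.4 were nearly level between the groups (log2 difference 0.01, 95% interval -0.18 to 0.20, limma adjusted p = 0.956, and 0.09 after GC correction).

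Vcan encodes versican, a large chondroitin sulfate proteoglycan that binds hyaluronan (gene 13003, chromosome 13, 89655309 to 89743027). It had 111, 104 and 109 normalised reads in NC-up, against 139.6, 124 and 111 in SETDB2-up. The lowest SETDB2-up value lay just inside the NC-up range, and the log2 difference of 0.20 (95% interval -0.15 to 0.54) had an adjusted p of 0.450 by limma. After GC correction the difference in Vcan was 0.06. Aspn encodes asporin, a relative of decorin with a run of aspartates (gene 66695, chromosome 13, 49544443 to 49567565). It was the scarcest, with 5, 47 and 25 recovered reads in NC-up, against 26, 15 and 27 in SETDB2-up. At this depth its 95% interval ran from -0.93 to 1.35 on the log2 scale, and the sign of its difference changed with the tool, from 0.21 in limma (-0.01 after GC correction) to -0.19 in edgeR. No difference in Aspn was detectable.

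**Figure D3:**
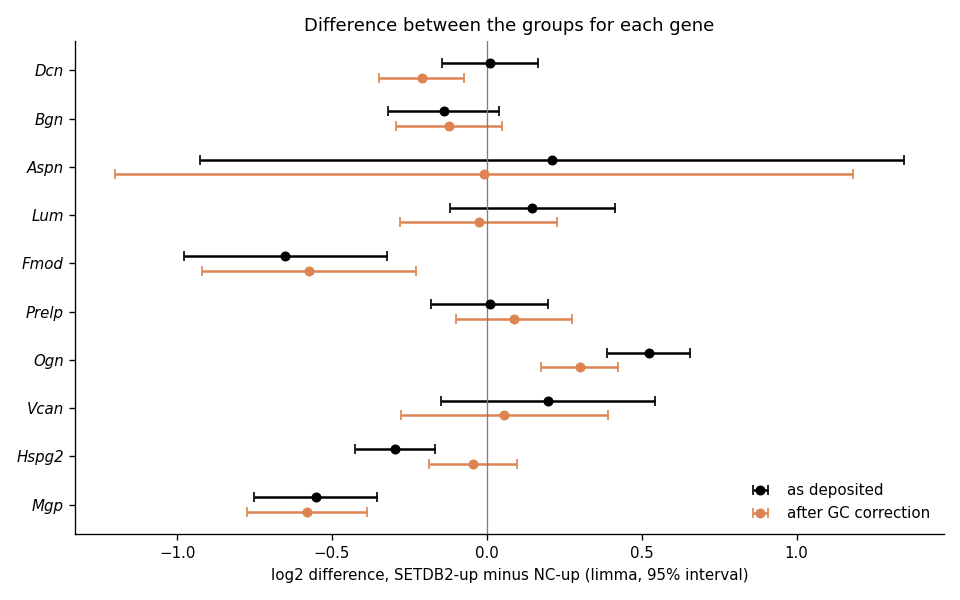
Log2 difference, SETDB2-up minus NC-up (x axis), with its 95% interval from limma for each gene, as deposited (black) and after GC correction (orange). The intervals of Ogn, Fmod and Mgp stay clear of 0 in both, that of Hspg2 does so only as deposited, and that of Dcn only after correction, where its adjusted p was 0.0645.

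Levels can be compared between genes per length only, and were set per kilobase of the longest principal transcript in GENCODE. In NC-up decorin was the most abundant, at 3869 ± 220 normalised reads per kilobase (SD, n = 3), followed by Mgp at 1171 ± 85.6, Ogn at 1007 ± 88.2 and Hspg2 at 764 ± 51.2. The levels of Mgp and Ogn overlapped in NC-up. In SETDB2-up they were apart, with Ogn at 1443 ± 34.9 and Mgp at 799.6 ± 86.1 per kilobase, so that Ogn moved ahead of Mgp in the order. Below them came Bgn (399 ± 42.9) and Lum (329.8 ± 73.0), whose NC-up levels overlapped, then Prelp (152 ± 8.76) and Fmod (95.5 ± 10.5). With its shorter principal transcript of 1574 bases Bgn was at a mean of 613 in NC-up, so its distance from Lum depends on the isoform. Aspn was lowest, at 10.4 ± 8.55. Vcan was at 46.6 ± 1.51 with a principal transcript of 2321 bases and at 8.71 with its longest transcript of 12427 bases, so its place next to Aspn depends on the isoform, which these values do not resolve.

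Ratios within a library do not depend on library scaling, and Dcn served as the reference because it is the most abundant of the family. Ogn reads per Dcn read were 0.392, 0.365 and 0.381 in NC-up, against 0.480, 0.588 and 0.562 in SETDB2-up, and the SETDB2-up mean was 1.43 times the NC-up mean. Mgp reads per Dcn read were 0.108, 0.107 and 0.104 against 0.0681, 0.0695 and 0.0784. Fmod per Dcn was 0.0459, 0.0442 and 0.0410 against 0.0279, 0.0346 and 0.0217. Hspg2 per Dcn was 1.56, 1.68 and 1.53 against 1.14, 1.47 and 1.27. Vcan, which did not pass by itself, had ratios of 0.0154, 0.0157 and 0.0167 against 0.0176, 0.0198 and 0.0172. The groups did not overlap in any of these 5 ratios, higher in SETDB2-up for Ogn and Vcan and lower for the others. By plain values 33.3% of all genes did not overlap, and the share for ratios to Dcn was not computed. The ratios are not corrected for GC content. After that correction the log2 differences were -0.05 for Hspg2, 0.06 for Vcan and -0.21 for Dcn itself, and none of the 3 passed. An exact permutation test of 3 against 3 libraries cannot go below a two-sided p of 0.10, which is the value for each, so the ratios are given as a description. The ratios of Bgn, Aspn, Lum and Prelp to Dcn overlapped between the groups.

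Ratios between other pairs restate the differences above in another form. There were 3.64, 3.42 and 3.66 Ogn reads per Mgp read in NC-up, against 7.04, 8.46 and 7.17 in SETDB2-up, a mean 2.11 times as high. Lumican and fibromodulin share a binding site on collagen. Lum reads per Fmod read were 3.04, 2.28 and 2.78 in NC-up, against 4.83, 3.82 and 5.50 in SETDB2-up, where Fmod had fallen and Lum had not passed the test. Prelp per Dcn, by contrast, was 0.0767, 0.0870 and 0.0792 against 0.0745, 0.0897 and 0.0792, with overlapping groups.

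**Figure D4:**
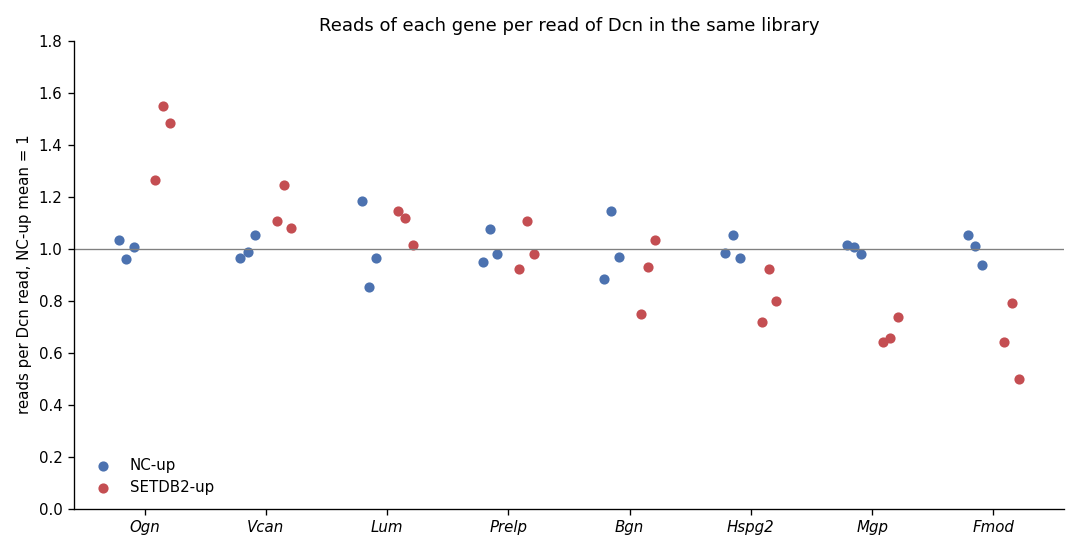
Reads of 8 genes per read of Dcn in the same library (y axis, from 0), with the NC-up mean of each gene set to 1, for 3 NC-up (blue) and 3 SETDB2-up (red) libraries. Ogn lies at 1.26 to 1.55 in SETDB2-up, Mgp at 0.64 to 0.74 and Fmod at 0.50 to 0.79. Aspn, with 5 to 47 reads, is left out.

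The small leucine-rich genes lie in clusters that the selection did not use. Aspn and Ogn lie 40449 bases apart on chromosome 13 with Omd between them and Ecm2 beside them. Within this cluster Ogn alone passed. Aspn overlapped between the groups, as did Omd (15.9, 22.0 and 27.7 against 28.5, 28.5 and 18.7) and Ecm2 (111, 89.1 and 171 against 134, 138 and 120.5). Whether Ogn differed from its neighbours in response was not tested. Cenpp overlaps Ogn, Aspn, Omd and Ecm2 on the opposite strand at a mean of 19.2 normalised reads, against 3142 for Ogn and 22.8 for Aspn. Group means in NC-up and SETDB2-up were 21.9 and 25.2 for Omd, and 124 and 131 for Ecm2. As no source used here states the strand setting of the counting, the reads of Aspn and Omd are uncertain. Dcn and Lum lie 47337 bases apart on chromosome 10, near Epyc (38.1, 59.4 and 67.9 against 75.05, 64.1 and 71.4, limma adjusted p = 0.313). Prelp and Fmod lie 107151 bases apart on chromosome 1, and of this pair only Fmod passed.

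Libraries also differed within groups. NC-up library 1 was the highest of its group for 7 of the 10 genes and SETDB2-up library 1 for 8. Library 3 was the lowest for 6 genes in NC-up and for 6 in SETDB2-up. Across the 6 libraries Dcn and Lum had a Pearson r of 0.80, Fmod and Hspg2 of 0.96 and Ogn and Mgp of -0.84, values that include the difference between the groups and share each library's depth and composition. Among 11732 named genes with a mean of at least 100 normalised reads, the gene most like Dcn was Gpc3 (r = 0.987), which encodes a glypican, with 1552, 1415 and 1404 against 1688, 1284 and 1349. The one most like Ogn was Mtmr7 (r = 0.998), and 220 genes had an r over 0.95 with Ogn, so that with 6 libraries such likeness singles out no gene. Slc52a3 was most like Mgp (r = 0.996), Mindy2 most like Fmod (r = 0.994) and Otulin most like Hspg2 (r = 0.995).

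The remaining proteoglycan core proteins gave calls for 1 of 8, 2 of 15 and 3 of 15 genes in 3 lists, near the 16.4% of all genes. Of 8 tested other small leucine-rich genes 1 fell, Chadl, whose product binds collagen, with 814, 715 and 709 normalised reads against 465, 568 and 534 (log2 difference -0.52 ± 0.09 SE, limma adjusted p = 0.00109, and -0.39 after GC correction, adjusted p = 0.0148). The median of these 8 was -0.05. Of 15 other large or basement membrane proteoglycans and link proteins, Hapln1, which ties versican and its relatives to hyaluronan, rose (0.37 ± 0.10 SE) and Bcan, brevican, fell (-0.21 ± 0.07 SE). Neither passed after GC correction (0.17 and 0.04), where 1 other gene of the list, Col18a1, rose. Spock2, the most abundant of that list, was at 67428, 70488 and 71699.8 against 65083, 70594 and 69359.6. Of 15 cell surface proteoglycans Sdc2 rose (0.26 ± 0.09 SE) and Gpc1 (-0.22 ± 0.06 SE) and Cspg5 (-0.39 ± 0.13 SE) fell, and none of the 15 passed after GC correction.

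Enzymes that build the sugar chains were mixed. All proteoglycans of the chondroitin and heparan sulfate type need the same linker sugars, and 3 of 7 linker genes fell: Xylt2, which adds the first xylose (-0.37 ± 0.08 SE), B3gat3 (-0.31 ± 0.07 SE) and B3galt6 (-0.37 ± 0.12 SE). The median of the 7 was -0.30, against 0.00 over all genes, and none passed after GC correction (median -0.13). Of 15 chondroitin and dermatan sulfate genes 3 fell, the polymerising factors Chpf (-0.30 ± 0.07 SE) and Chpf2 (-0.24 ± 0.06 SE) and the sulfotransferase Chst3 (-0.34 ± 0.10 SE), and 1, Dsel, rose. None passed after GC correction. Of 22 heparan sulfate genes 5 rose and 2 fell. Ndst4 (0.45 ± 0.07 SE) and the epimerase Glce (0.32 ± 0.08 SE) were among the former, Hs6st1 (-0.32 ± 0.07 SE) among the latter, and Ndst4 alone passed after GC correction (0.24, limma adjusted p = 0.0311). Of 7 genes that supply the sulfate donor, the transporter Slc35b2 fell (-0.32 ± 0.08 SE) as deposited and Bpnt2 after GC correction. Of 9 genes of hyaluronan synthesis and breakdown Hyal2 fell, and none passed after GC correction.

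For the keratan sulfate chains that lumican and fibromodulin carry, 6 genes were tested and Chst2, a sulfotransferase that acts on N-acetylglucosamine, fell. It had 3180.3, 3569 and 3326 normalised reads in NC-up, against 2559, 2637 and 2746 in SETDB2-up, with no overlap. The log2 difference was -0.34 ± 0.06 (SE, limma adjusted p = 0.000991) and -0.40 after GC correction (limma adjusted p = 0.000422). B3gnt2 (0.15 ± 0.08 SE) and B4galt1 (0.08 ± 0.10 SE) did not pass.

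Most of the fibrillar collagens to which these proteins bind fell. Of 9 fibrillar collagens 7 fell and none rose (median log2 difference -0.36), and by smallest adjusted p the first were Col1a1 (-0.55 ± 0.08 SE), Col5a1 (-0.53 ± 0.08 SE) and Col1a2 (-0.35 ± 0.06 SE). These 3 passed after GC correction too, and the other 4 did not. Of 16 fibrillin and elastic fibre genes 6 fell and none rose, with Mfap4, a microfibril-associated protein, at 131, 162 and 151 against 57.9, 58.0 and 97.3 (log2 difference -1.09 ± 0.21 SE, limma adjusted p = 0.00161). Mfap4 and Fbln1 passed after GC correction. Among 11 collagens of basement membranes and microfibrils Col6a2 (-0.44 ± 0.09 SE) and Col6a1 (-0.42 ± 0.12 SE) fell, and Col6a2 alone passed after GC correction. Of 13 genes for laminins, nidogens and dystroglycan, which meet perlecan in the basement membrane, 0 passed in limma and 0 in edgeR, and 4 had an unadjusted limma p under 0.05. Of 20 proteases and helpers of matrix processing Mmp14 (-0.28 ± 0.07 SE), Bmp1 (-0.29 ± 0.08 SE), which cleaves the propeptides of several small leucine-rich proteins, and Pcolce (-0.28 ± 0.08 SE) fell, none of them after GC correction.

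Around Mgp, the vitamin K cycle and other Gla proteins gave 1 call in 11 genes tested, Prrg3, which rose (0.20 ± 0.07 SE, limma adjusted p = 0.0465), and it passed neither in edgeR (adjusted p = 0.0502) nor after GC correction. Gas6, a Gla protein and receptor tyrosine kinase ligand, had 5300.1, 5231 and 5191 against 4910.4, 5012 and 5145 (limma adjusted p = 0.468). Of 8 genes of calcification control, Alpl, the phosphatase that promotes mineralisation, fell, with a mean of 519 ± 76.5 in NC-up and 307 ± 19.9 in SETDB2-up (SD, n = 3 each). On the log2 scale the difference was -0.74 ± 0.11 (SE, limma adjusted p = 0.000247), and -0.61 after GC correction (limma adjusted p = 0.00249). Spp1, osteopontin, rose from 1731 ± 122 to 2355 ± 56.3 (log2 difference 0.45 ± 0.07 SE, limma adjusted p = 0.000193). It passed after GC correction as well (0.30, limma adjusted p = 0.00825). Of 15 ligands and receptors of the transforming growth factor beta and bone morphogenetic protein families, Bmp6 (-0.59 ± 0.12 SE) and Bmp7 (-0.34 ± 0.10 SE) fell and Bmpr2, a receptor, rose (0.43 ± 0.08 SE) with Bmpr1a. Bmp6 and Bmpr2 alone passed after GC correction.

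**Figure D5:**
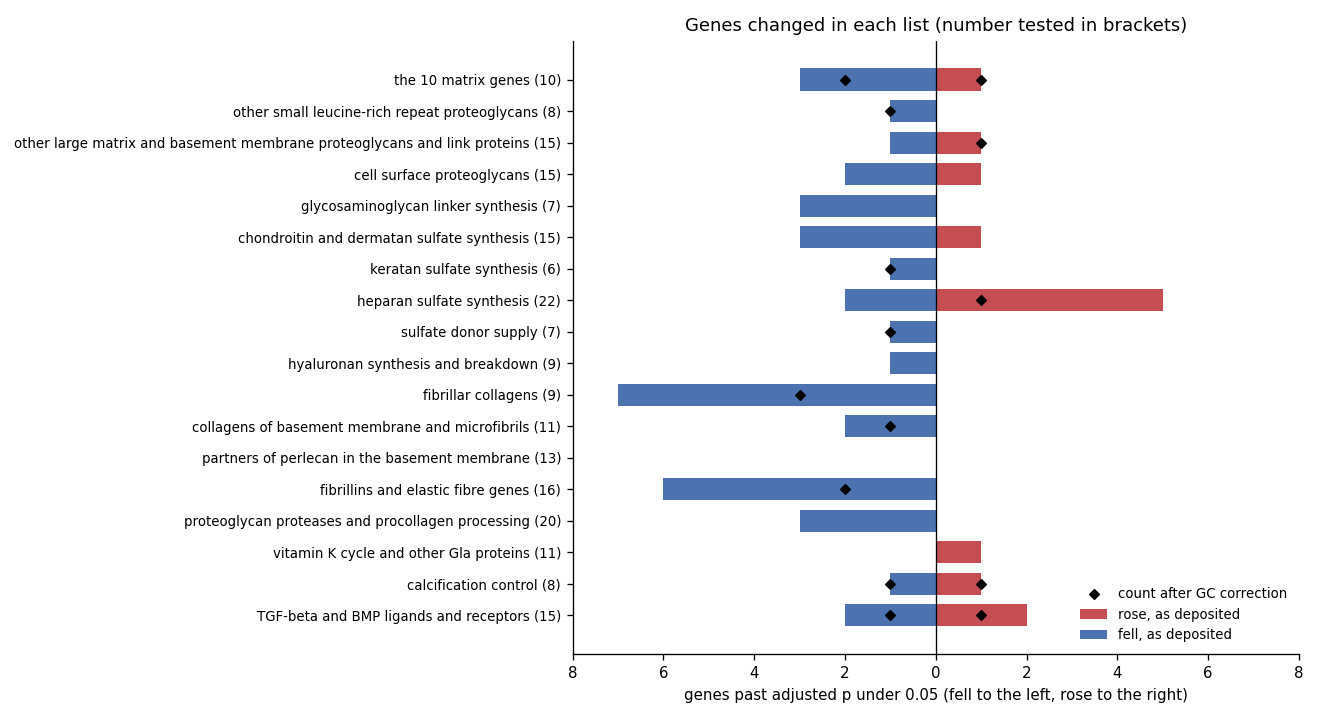
Number of genes that rose (red, to the right) or fell (blue, to the left) at a limma adjusted p under 0.05 in each list, with the number tested in brackets and the count after GC correction as diamonds. Fibrillar collagens have the most falls, 7 of 9, of which 3 remain after GC correction.

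Some markers of the cells that make these proteins moved with the groups. In bulk tissue fewer cells of a type and less RNA per cell cannot be told apart. Of 9 markers of leptomeninges and dura 5 fell and none rose, with the same 5 after GC correction. The transcription factors Foxd1 (-1.05 ± 0.14 SE) and Foxc1 (-0.62 ± 0.11 SE) and the transporter Slc6a13 (-0.73 ± 0.12 SE) were among them. The summed level of the list, most of it Ptgds, was 11229 to 14009 in NC-up and 5723 to 9514 in SETDB2-up, and SETDB2-up library 3, the lowest for Fmod, was also the lowest here. Of 13 general fibroblast markers 5 fell and none rose (4 fell after GC correction), with Igf2 at -0.87 ± 0.09 SE, and their sum was 37032 to 40793 against 32036 to 34216. Among the 5, Col1a1, Col1a2 and Col3a1 are fibrillar collagens already counted above. The other 8 did not pass, among them Thy1 (-0.06 ± 0.06 SE) and Serpinf1 (-0.06 ± 0.08 SE), and neither did Dcn or Lum. Of 6 endoneurial fibroblast markers, by contrast, Abca8a (0.34 ± 0.06 SE), Etv1 (0.38 ± 0.07 SE) and Apod rose and Cygb (-0.36 ± 0.07 SE) fell. Their sum, most of it Apod, was 22231 to 23761 against 25952 to 29617. Of the 4, Abca8a alone passed after GC correction. Mgp and Fmod fell and Ogn rose, and whether they followed any of these marker lists was not tested. Within SETDB2-up, Mgp was lowest in library 2 (435 against 505 in library 3), whereas the meningeal sum was lowest in library 3. The part of such cells in the changes of Mgp, Fmod and Ogn was not tested either.

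Other marker lists bear on single genes. Of 9 vascular smooth muscle and pericyte markers, cells that also make Mgp, Rgs5 rose (0.19 ± 0.06 SE, and 0.01 with no call after GC correction) and none fell, and the sum was 4198 to 4913 against 4563 to 4981. Of 9 endothelial markers Cldn5 fell (-0.40 ± 0.08 SE, and -0.16 with no call after GC correction), with a sum of 4182 to 4471 against 3950.4 to 4052. Of 9 cartilage and bone markers Col11a2 and Col2a1 fell, neither after GC correction, with a sum of 947.5 to 1221 against 816 to 897. SETDB2-up library 3 held the fewest liver transcripts of its group, with a marker sum of 119 against 3438 and 8129. With it as the only SETDB2-up library against NC-up, the log2 differences were 0.49 for Ogn, -0.51 for Mgp, -1.08 for Fmod and -0.40 for Hspg2. This library also had a skeletal muscle sum of 1013, most of it Eno3, against 2000.5 to 2131 in NC-up, and the lowest meningeal sum, 5723. The part of liver or other tissue in these differences was not tested, and 1 library cannot show it.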

How the data were processed

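Polyadenylated RNA was made into strand-specific libraries and sequenced as 150 bp read pairs, per the labels' protocols. FastQC, HISAT2 and GRCm38 are named in the submitters' processing notes without versions. No source used here gives the read counter, strand setting, annotation or size-factor method. The deposited signal is read counts that the authors divided by 1 factor per library: every value (100%, tolerance 0.001 read) is a whole multiple of its library's step, so whole reads were recovered. At this depth 3 reads are 0.128 to 0.155 CPM. Pairs of libraries within each group had a chi-square of 3.95 to 9.87 for each degree of freedom, more than counting error gives.

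The main test was limma 3.58.1 (R 4.3.3) with a mean-variance trend on log2(value + 1) over 16387 genes with at least 1 in at least 3 libraries, with Benjamini-Hochberg adjustment over all of them. Intervals use limma's moderated standard errors. Differences on this scale understate the change of low genes. GC content and length came from GENCODE M21 (GRCm38), matched for 15541 genes (94.68%); 15343 of 15346 genes found there by symbol overlapped on the same strand. The GC correction removed a loess trend (span 0.5) of each library's deviation from the gene mean. Counts were also tested with edgeR 4.0.16, DESeq2 1.42.0 and limma-voom. Tests were checked on simulated data. The members and lists were chosen with earlier results of these data known. The genes named were all 10 members, up to 3 genes of each list past the threshold with the smallest adjusted p and up to 2 others with the highest means, genome neighbours of the members and the gene most like each member. Dsel, Bmpr1a, Apod, Fbln1, Ptgds, Col3a1 and those named as passing after GC correction alone were named after their values were seen.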

Additional observations from a re-analysis of the deposited data

How the results depend on the processing

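Ogn, Fmod and Mgp kept their direction and their call in all 20 alternatives, with log2 differences of 0.30 to 0.59, -1.08 to -0.44 and -0.62 to -0.47. Hspg2 kept its direction (-0.40 to -0.05) and lost its call under GC correction (-0.05, adjusted p = 0.759) and under GC correction with the replicate block (-0.05, adjusted p = 0.471). Bgn and Vcan kept their direction and passed in none. Leaving out 1 library at a time, 1 of the 10 genes rose and 3 fell each time. Over all genes the count of 2690 calls was 942 after GC correction, 447 with SETDB2-up library 3 alone against NC-up, and 1082 to 3335 with 1 library left out, being 1611 without NC-up library 2, 1082 without SETDB2-up library 1 and 1575 without SETDB2-up library 2. The cause was not tested.

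Genes near 0 changed sign. Dcn, at 0.01, was at -0.21 after GC correction without (adjusted p = 0.0645) and with the replicate block (adjusted p = 0.000982), the one alternative in which it passed, -0.0765 with SETDB2-up library 3 alone, and between -0.0971 and 0.0723 with 1 library left out (-0.00663 without NC-up library 2, -0.0214 without NC-up library 3, -0.0971 without SETDB2-up library 1). Aspn, at 0.21, was at -0.19 in edgeR with TMM, with RLE and without a filter and in DESeq2 (-0.19), at -0.00999 after GC correction with and without the block, and between -0.58 and 0.85 with 1 library left out. Lum, at 0.15, was at -0.0259 after GC correction with and without the block and at -0.0439 with SETDB2-up library 3 alone. Prelp, at 0.01, was at -0.11 with that library alone and between -0.0367 and 0.0675 with 1 library left out (-0.0353 without NC-up library 3, -0.0367 without SETDB2-up library 1, -0.00111 without SETDB2-up library 2).

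Library numbers are shared by the groups but are not said to mark a shared animal or batch. Same-numbered libraries had deviations that correlated at 0.0585, 0.0422 and 0.0497, each the best match of its number, as a hint from the data. With the replicate number as a block 3618 genes passed, and among the 10 genes again 1 rose (Ogn, 0.52) and 3 fell. Depth limits Aspn, with 5 to 47 reads per library.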
